A study of Mus musculus with 2 samples.

Results

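The genes for the alpha2delta and beta subunits of voltage-gated calcium channels were examined in ribosome-bound RNA from the mouse dentate gyrus. They comprise 8 genes, chosen by symbol, with earlier results of these data known. These are Cacna2d1, Cacna2d2, Cacna2d3 and Cacna2d4 for alpha2delta, and Cacnb1, Cacnb2, Cacnb3 and Cacnb4 for beta. All 8 were found among 32531 gene lines. The 2 libraries form 1 group, untreated adult mice of the line OI82, which carry EGFP/Rpl10a, a ribosomal protein tagged with green fluorescent protein, under the regulatory sequence of Lypd1. In translating ribosome affinity purification (TRAP), tagged polysomes are captured with anti-EGFP antibodies and their RNA is sequenced. Both libraries are immunopurified (IP), and an input library or another cell type was not analysed here. The values are therefore levels within the purified RNA and not enrichments. Whether each replicate is 1 animal or a pool is not in the labels, and their spread may be technical.

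A high-voltage-activated calcium channel is built from a pore-forming subunit, through which calcium enters, and auxiliary subunits that assemble with it. The beta subunit is cytoplasmic, binds an intracellular loop of the pore and promotes its delivery to the membrane and its opening. The alpha2delta subunit is extracellular, is held to the membrane by a lipid anchor, and raises the number of channels at the surface, including those at presynaptic terminals. Low-voltage-activated (T-type) pores do not require these partners.

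The libraries held 31309643 counts on genes in replicate 1 and 32711412 in replicate 2. Levels are counts per 1000000 counts on genes (CPM), and for comparison between genes they were divided by the length of all annotated exons of the gene (CPM per kilobase). Errors are SD over 2 libraries. Of the markers of granule cells, the main neurons of the dentate gyrus, 6 of 6 were detected, which here means at least 1 CPM in each library. The highest of them was Prox1 at 1100 and 1193 CPM. Among other cells, of the 4 microglial genes C1qa and C1qb were at 0 counts in both libraries. Csf1r, the highest of the 4, had 33 and 20 counts. The highest markers were Gad1 (62.8 ± 18.1 CPM) for GABAergic neurons, Slc1a2 (401 ± 16.3 CPM) for astrocytes and Mbp (113 ± 19.0 CPM) for oligodendrocytes. Detected were 3 of 6, 3 of 4 and 4 of 4 markers of these classes. Levels within a class were uneven. The lowest markers were Vip (0.156 ± 0.00484 CPM), Aldh1l1 (0.922 ± 0.0507) and Mog (2.36 ± 1.05). Lypd1 itself was at 229 ± 49.9 CPM and Rpl10a at 229 ± 42.1 CPM.

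All 8 subunit genes were detected in both libraries. In the alpha2delta family Cacna2d1 made up most of the RNA, with 78.4% ± 1.90 (SD, n = 2) of the summed level per kilobase. In the beta family no gene held a majority, and the 4 shares lay between 16.0% and 33.5%. The summed beta level was 4.38 times the summed alpha2delta level in replicate 1 and 3.71 times in replicate 2. Without length correction it was 2.69 and 2.37 times, and with the coding length 5.31 and 4.63 times.

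**Figure D1:**
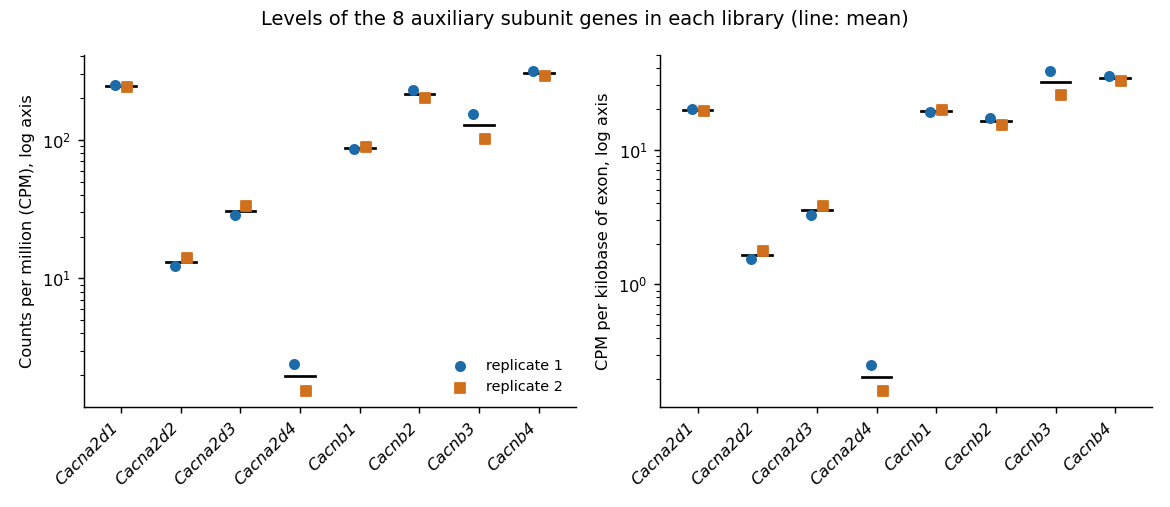
Level of each gene in replicate 1 (circles) and replicate 2 (squares) on logarithmic axes, in CPM on the left and in CPM per kilobase of exon on the right, with the mean as a line. The 4 beta genes and Cacna2d1 lie above 15 CPM per kilobase in both libraries, and the other 3 alpha2delta genes lie below 4.

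Cacna2d1 lies on chromosome 5 (15934691 to 16374511, plus strand, GRCm38) and encodes a receptor of the drugs gabapentin and pregabalin. The counts were 7782 in replicate 1 and 7828 in replicate 2, or 249 and 239 CPM. Per kilobase it stood at 20.0 and 19.3 CPM, above 85.2% of the 15044 genes with a count in both libraries and an exon length. Its level per kilobase was 6.12 times that of the next alpha2delta gene, Cacna2d3, in replicate 1 and 5.07 times in replicate 2.

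Cacna2d3 (chromosome 14, 28904943 to 29721864, minus strand) encodes a subunit with a known part in hearing and pain sensing and spans 817 kb, the longest of the 8 genes. It had 893 and 1085 counts, or 28.5 and 33.2 CPM. Per kilobase it was at 3.27 and 3.80 CPM, close to the median of 3.10 over those 15044 genes. Its ranges did not overlap with those of its neighbours in the order, Cacna2d1 above and Cacna2d2 below.

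Cacna2d2 (chromosome 9, 107399612 to 107529343, plus strand) encodes the other gabapentin-binding subunit and is the gene disrupted in the ducky mouse, which has ataxia and absence seizures. It had 385 and 457 counts, or 12.3 and 14.0 CPM, and 1.55 and 1.76 CPM per kilobase. Cacna2d3 exceeded it 2.11-fold and 2.16-fold per kilobase in replicates 1 and 2. Cacna2d2 is known from GABAergic neurons, whose genes were also in this RNA: the 6 markers of that class summed to 73.8 CPM in replicate 1 and 121 CPM in replicate 2. Gad1 (50.0 and 75.6 CPM) and Gad2 (19.7 and 42.8 CPM), the enzymes of GABA synthesis, carried nearly all of that sum. Sst was at 3.16 and 2.17 CPM, Slc32a1 at 0.703 and 0.367, Pvalb at 0.0958 and 0.306 and Vip at 0.160 and 0.153, and none of the 6 was at 0. The part of such cells in the Cacna2d2 level was not tested.

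Cacna2d4 (chromosome 6, 119236526 to 119352407, plus strand), which is best known from photoreceptor synapses in the retina, was the lowest of the 8 genes. It had 75 and 50 counts, or 2.40 and 1.53 CPM, and both values lie above the 0.0958 and 0.0917 CPM that a count of 0 allows. Per kilobase Cacna2d1 exceeded it 79.2-fold in replicate 1 and 120-fold in replicate 2. The order Cacna2d1, Cacna2d3, Cacna2d2, Cacna2d4 was the same in each library, and no 2 neighbours overlapped. It was also the same with the longest transcript or the coding sequence as the length.

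As shares of the alpha2delta counts without length correction, Cacna2d1 took 85.2% in replicate 1 (95% Clopper-Pearson interval 84.4 to 85.9) and 83.1% in replicate 2 (82.3 to 83.9). Cacna2d3 took 9.78% (9.17 to 10.4) and 11.5% (10.9 to 12.2). Both pairs of intervals lie apart, so the makeup of the family differed slightly between the libraries beyond counting error, which is the only error these intervals cover.

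The bases upstream of the annotated start were compared for the highest alpha2delta gene and the one next to it, since their levels differ several-fold. The windows are the 250 bases before the RefSeq start (GRCm38.p6), chr5:15934441-15934690 on the plus strand for Cacna2d1 and chr14:29721865-29722114 on the minus strand for Cacna2d3. Neither overlaps an annotated exon. Capitals mark matches to the GC box GGGCGG on either strand, with overlapping matches merged.
Cacna2d1: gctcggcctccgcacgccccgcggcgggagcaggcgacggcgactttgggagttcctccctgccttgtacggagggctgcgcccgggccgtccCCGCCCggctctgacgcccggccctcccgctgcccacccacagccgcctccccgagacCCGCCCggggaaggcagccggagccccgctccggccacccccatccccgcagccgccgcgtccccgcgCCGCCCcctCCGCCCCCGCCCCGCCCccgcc
Cacna2d3: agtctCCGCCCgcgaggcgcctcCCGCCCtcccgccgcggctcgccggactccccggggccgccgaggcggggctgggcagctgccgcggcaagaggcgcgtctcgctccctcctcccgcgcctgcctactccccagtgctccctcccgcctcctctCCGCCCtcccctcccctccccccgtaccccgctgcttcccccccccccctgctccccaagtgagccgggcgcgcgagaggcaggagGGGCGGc

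Both windows are rich in G and C, with 82.4% for Cacna2d1 and 80.0% for Cacna2d3, against a median of 52.4% over 32841 such windows of all genes. They hold 36 and 30 CpG dinucleotides, where the median window holds 6. The GC box occurred 6 times upstream of Cacna2d1 and 4 times upstream of Cacna2d3. The level of Cacna2d1 was 6.12 and 5.07 times that of Cacna2d3 per kilobase of all exons in replicates 1 and 2. With the longest transcript it was 4.33 and 3.59 times, and with the coding length 8.62 and 7.14 times. The part of these sequence features in the levels was not tested. RefSeq windows were found for 7 of the 8 genes, 12 in all, since a gene can have several starts. Of these, 8 were above 60% G and C, against 27.0% of all windows, and 7 held a GC box, against 32.7%. None held the TATA box letters TATAAA on either strand, which 12.4% of all windows held. CCAAT was found in 2 of the 12, against 33.9%. Cacnb1, Cacnb2, Cacnb3 and Cacnb4 each have at least 1 start with a GC-rich window and 1 without, and counts per gene cannot tell which start was used.

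Cacnb4 (chromosome 2, 52428320 to 52676831, minus strand) had the most counts of the 8 genes. It is the gene disrupted in the lethargic mouse, which has ataxia and seizures. It had 9892 and 9489 counts, or 316 and 290 CPM, and 35.2 and 32.4 CPM per kilobase, above 91.8% of genes. Of its exon bases, 16.0% are shared with A430018G15Rik, a noncoding gene on the opposite strand with no line in the count tables. The strand setting of the counting is not given in the sources used here, so reads of that gene cannot be told apart from those of Cacnb4. The same limit holds for 7.32% of the exon bases of Cacnb2, 1.77% of Cacnb1 and 1.03% of Cacna2d2.

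Cacnb3 (chromosome 15, 98630840 to 98644529, plus strand), a subunit widely found with neuronal N-type channels, is the most compact of the 8 genes at 13.7 kb. It had 4831 and 3331 counts, or 154 and 102 CPM, and 38.5 and 25.4 CPM per kilobase. Its range spans that of Cacnb4, and the order of the pair turned between the libraries, with Cacnb3 at 1.09 times Cacnb4 in replicate 1 and 0.785 times in replicate 2. With all exons or the longest transcript as the length, the ranges of Cacnb3 and Cacnb4 overlapped. Per kilobase of coding sequence they did not, with Cacnb4 at 186 to 203 CPM and Cacnb3 at 70.1 to 106 CPM.

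Cacnb1 (chromosome 11, 98001508 to 98023034, minus strand), best known for its role in skeletal muscle contraction, was detected well in this neural RNA. It had 2693 and 2924 counts, or 86.0 and 89.4 CPM, and 19.0 and 19.7 CPM per kilobase. With all exons as the length its range overlapped with that of Cacna2d1. It did not with the longest transcript, where Cacna2d1 was at 32.2 to 33.4 CPM per kilobase and Cacnb1 at 25.3 to 26.3, or with the coding length, where they were at 72.3 to 75.1 and 42.3 to 44.0.

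Cacnb2 (chromosome 2, 14603088 to 14987908, plus strand), which encodes the main beta subunit of cardiac L-type channels, had 7139 and 6579 counts, or 228 and 201 CPM. Its annotated exons together cover 13228 bases, of which 7.32% are shared with opposite-strand genes that have no line in the count tables. Its longest transcript covers 5030 bases, and the gene has 16 annotated transcripts. Per kilobase of all exons it was at 17.2 and 15.2 CPM, the lowest of the beta genes. Per kilobase of the longest transcript it was at 42.7 CPM on average, above Cacnb4 at 36.8 CPM, and per kilobase of coding sequence only Cacnb4 exceeded it. The place of Cacnb2 therefore rests on the length used, which these counts cannot settle. Cacnb1 was the lowest beta gene with either of the other lengths.

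**Figure D2:**
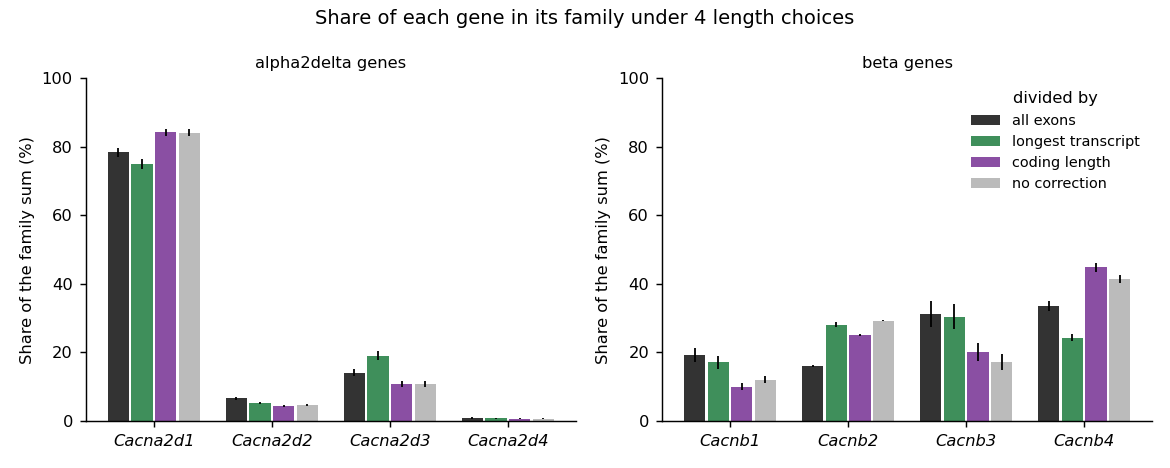
Mean share of each gene in the summed level of its family, in percent, for the alpha2delta genes on the left and the beta genes on the right, with counts divided by all exons, the longest transcript, the coding length or nothing. Vertical lines join the values of the 2 libraries. Cacna2d1 holds 75.0% to 84.2% of its family under all 4 choices, while Cacnb2 moves from 16.0% to 29.3%.

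The share of Cacna2d1 in its family lay between 75.0% and 84.2% whichever length was used, and with no length correction. The shares of the beta genes moved more. Cacnb4 held 33.5% with all exons, 24.3% with the longest transcript and 44.8% with the coding length. Cacnb2 held 16.0%, 28.1% and 25.1% with the same lengths, and Cacnb3 held 31.2%, 30.5% and 20.1%. Under these 3 lengths no beta gene reached the share that Cacna2d1 has among the alpha2delta genes.

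Between the libraries, 0 of the 8 genes passed a 2-fold difference, against 10.3% of the 13089 genes that averaged 1 CPM or more. With 8 genes a count of 0 is near that share and says little about them as a group. Their median log2 ratio of replicate 2 to replicate 1, on totals scaled by edgeR's TMM method, was 0.00, beside -0.01 over all genes tested. The size of the ratio, without its sign, had a median of 0.21 for the 8 genes and 0.33 for all. Among genes that averaged 10 CPM or more, as 7 of the 8 did, the median size was 0.27. A ratio of 1 library to 1 compares these libraries and not conditions, and no p-value is given.

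**Figure D3:**
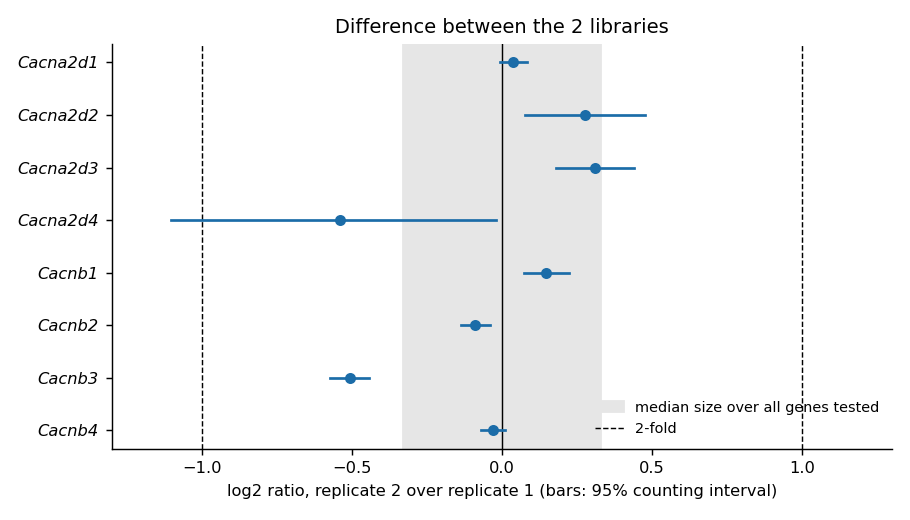
Log2 ratio of replicate 2 to replicate 1 for each gene, with its 95% counting interval as a bar. Dashed lines mark a 2-fold difference and the grey band spans the median size of the ratio over all genes tested, 0.33 to either side of 0; Cacna2d4 and Cacnb3 lie outside the band, and all 8 points lie inside the dashed lines.

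Cacnb3 had a log2 ratio of -0.51 (95% counting interval -0.57 to -0.44), the largest in size among the 7 genes that averaged 10 CPM or more. It was lower in replicate 2 by library totals too, with -0.60. Its share of the beta counts, which needs no scaling, was 19.7% (19.2 to 20.2) in replicate 1 and 14.9% (14.5 to 15.4) in replicate 2. Over all genes that averaged 1 CPM or more, 67.3% had a ratio smaller in size. Among genes that averaged 10 CPM or more, the median size was 0.27, and the share with a smaller ratio was not computed. Marker lists of other cells moved in both directions. Lower sums in replicate 2 were found for the 4 mossy cell markers (57.6 and 34.9 CPM), led by Ajap1, and the 4 oligodendrocyte markers (163 and 119 CPM), led by Mbp. The 4 CA pyramidal markers summed to 308 and 285 CPM, although the highest of them, Cpne4, was at 203 and 206 CPM. The 4 endothelial markers summed to 18.5 and 15.9 CPM, although the highest, Flt1, was at 10.7 and 11.6 CPM. Of these 4, 2 had a log2 ratio above 0. The 4 microglial markers summed to 1.76 and 0.978 CPM. Higher sums in replicate 2 were found for the 6 GABAergic markers (73.8 and 121 CPM), carried by Gad1 and Gad2. Pvalb, at 3 and 10 counts, was also higher. Sst (3.16 and 2.17 CPM) and Slc32a1 (0.703 and 0.367) were lower in replicate 2, and Vip had 5 counts in each library. The sums were also higher for the 2 oligodendrocyte precursor markers (6.07 and 15.0 CPM), led by Pdgfra, and the 4 astrocyte markers (414 and 440 CPM). Slc1a2 carried most of the astrocyte sum, at 389 and 413 CPM. Gfap was at 7.09 and 12.0 CPM, Aqp4 at 16.8 and 14.3 and Aldh1l1 at 0.958 and 0.887. The 6 granule cell markers summed to 3506 CPM in each library, but they moved in both directions. Prox1 (1100 and 1193 CPM), Dsp (252 and 329) and C1ql2 (49.2 and 50.7) were higher in replicate 2. Sema5a (925 and 855 CPM), Stxbp6 (814 and 799) and Calb1 (366 and 280) were lower. The part of any of these cells in the Cacnb3 difference was not tested. In purified bulk RNA, fewer cells of a type and less RNA per cell cannot be told apart.

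Cacna2d4 had a ratio of similar size, -0.54, but from 75 and 50 counts its interval ran from -1.10 to -0.02. Cacna2d2 and Cacna2d3 were higher in replicate 2, with log2 ratios of 0.28 (0.08 to 0.48) and 0.31 (0.18 to 0.44). Cacnb1 was at 0.15 and Cacnb2 at -0.09. Cacnb4 was at -0.03 (-0.07 to 0.01), or -0.12 with library totals alone, and Cacna2d1 at 0.04 (-0.01 to 0.08), or -0.05 with library totals alone. Scaling by library totals moved the median of all genes to -0.10 and turned the sign of Cacna2d1 alone among the 8 genes.

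Pore subunit genes were set beside their auxiliary partners on the same scale. Of the 10 pore genes 8 were detected, and 2, Cacna1f and Cacna1s, which encode L-type pores of retina and skeletal muscle, were at 0.263 ± 0.191 and 0.0313 ± 0.000968 CPM. Cacna1e, which encodes the R-type pore, stood at 31.8 and 33.0 CPM per kilobase and made up 43.2% ± 3.15 of the pore sum. Cacna1b (N-type, 10.9 ± 0.307 CPM per kilobase), Cacna1h (T-type, 9.59 ± 1.82), Cacna1c (L-type, 8.57 ± 0.431) and Cacna1a (P/Q-type, 7.25 ± 0.702) followed. Cacna1d (L-type, 3.94 ± 0.896 CPM per kilobase), Cacna1g (T-type, 1.48 ± 0.602) and Cacna1i (T-type, 0.948 ± 0.253) were lower. The range of Cacna1h (8.30 to 10.9) overlapped with those of Cacna1b (10.7 to 11.1) and Cacna1c (8.27 to 8.88). With the longest transcript, the coding length or no correction only Cacna1e exceeded Cacna1c, which held 12.6%, 13.7% and 13.4% of the pore sum. Cacna1e held 50.1%, 60.3% and 60.2% with these settings. The order of the pore genes thus rests partly on the length used.

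**Figure D4:**
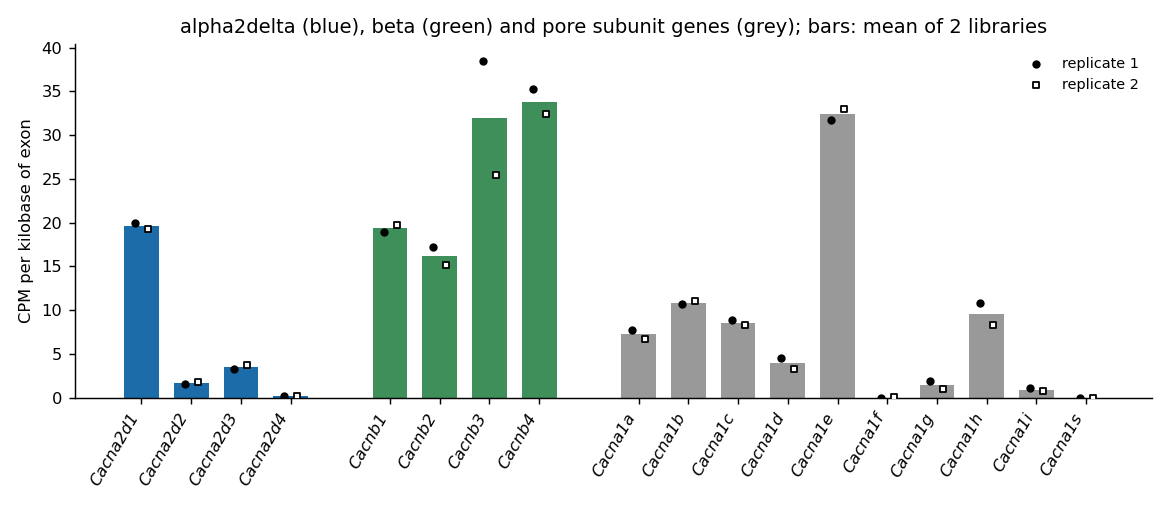
Mean level of the alpha2delta (blue), beta (green) and pore subunit genes (grey) in CPM per kilobase of exon, with replicate 1 as filled circles and replicate 2 as open squares. Cacnb3, Cacnb4 and Cacna1e reach 25 CPM per kilobase in both libraries, and no other gene shown exceeds 21.

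The summed beta level per kilobase was 1.42 times the summed pore level in replicate 1 and 1.28 times in replicate 2. The summed alpha2delta level was 0.323 and 0.345 times the pore sum. That sum includes the T-type genes Cacna1h, Cacna1g and Cacna1i, which do not require these partners and held 12.7%, 1.96% and 1.26% of it. These are ratios of ribosome-bound RNA and not of protein. The beta ratio was above 1 with each of the 3 lengths and fell to 0.540 without length correction, since pore genes have long transcripts. With all exons as the length, Cacnb4 alone was at 1.11 times Cacna1e in replicate 1 and 0.982 times in replicate 2. Cacna2d1 was at 0.630 and 0.585 times Cacna1e. Both ratios were computed with this length only and would move with another. Per kilobase of the longest transcript Cacnb4 averaged 36.8 CPM, and Cacna1e held 50.1% of a pore sum of 109 CPM. With the coding length Cacnb4 averaged 195 CPM, and Cacna1e held 60.3% of a pore sum of 199 CPM.

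Other genes known to act with these subunits were read from lists. Of the 8 gamma subunit genes, most of which encode auxiliary subunits of AMPA receptors (TARPs), 5 were detected, led per kilobase by Cacng3 (21.9 ± 3.75 CPM), Cacng7 (16.9 ± 6.71), Cacng2 (5.03 ± 0.185) and Cacng5 (5.01 ± 1.58). Cacng1, the skeletal muscle channel gamma subunit, had 0 counts, and Cacng6 had 8 and 2 and Cacng4 2 and 3. Of the 5 detected genes 0 passed 2-fold between the libraries, which for 5 genes is near the 10.3% over all genes.

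Of 8 relatives and partners of alpha2delta, 5 were detected. Prnp, the prion protein, was the highest per kilobase (103 ± 19.5 CPM), followed by the endocytic receptor gene Lrp1 (4.58 ± 0.113), Cachd1 (1.05 ± 0.495), a relative of the alpha2delta genes, and the thrombospondin gene Thbs3 (0.650 ± 0.139). Thrombospondins, which bind alpha2delta in synapse formation and are secreted by astrocytes, were scarce. Thbs1 had 4 and 1 counts, Thbs4 13 and 27, and Comp 19 and 7, and Thbs2 was at 1.34 CPM. Of the 5 that averaged 1 CPM or more, 0 passed 2-fold, which for 5 genes is near the 10.3% over all genes.

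Of 12 genes for proteins that bind beta subunits or regulate channels, 8 were detected. The presynaptic scaffold genes Rimbp2 (18.5 ± 0.918 CPM per kilobase) and Rims1 (12.6 ± 0.760), the channel inhibitor gene Cbarp, listed under its older symbol Dos (12.4 ± 2.07), and Rims2 (5.65 ± 0.577) were the highest. The small GTPases of the RGK class, which bind beta and suppress calcium current, were near or under the threshold. Rem2 was at 1.76 and 2.20 CPM and Gem at 1.12 and 1.62 CPM, while Rrad had 0 and 9 counts and Rem1 none. Stac3 had 6 and 1 counts. Stac, an adaptor of L-type channels, had 21 and 48 counts and a log2 ratio of 1.15 (0.45 to 2.04). It was the only gene past 2-fold among the 9 of this list that averaged 1 CPM or more, a share near the 10.3% over all genes.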

How the data were processed

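The deposited values are raw counts per gene symbol, 1 table per library. The tools named per the submitters' processing notes are STAR 2.0.0e and HTSeq, with build mm10. The annotation used for counting is not given in the sources used here, nor is the strand setting. HTSeq's summary lines and the empty line unknown were left out of the totals. CPM and exon lengths were computed here, the lengths from GENCODE release M21 (GRCm38), with 23155 gene lines matched by symbol and 729 by older symbols. TMM factors and log2 ratios (prior count 2) came from edgeR 4.0.16, and size factors for an alternative from DESeq2 1.42.0. The ratio step was run on simulated libraries in which 200 genes were changed. That run checks the computation and not the ratios of these libraries. With 1 group no test between conditions was possible. Intervals are exact (Clopper-Pearson, 95%) and cover counting error only, since reads without molecular identifiers are not independent molecules. Alternatives were other totals, lengths, filters and prior counts, and each library alone. Members and lists were chosen with earlier results of these data known. Named genes are the 8 members, all pore subunit genes, Lypd1, Rpl10a, in each partner list the 4 highest per kilobase and those under 1 CPM or past 2-fold, and the highest or absent marker of a class. Thbs2, Rem2, Gem, Mog, Slc32a1 and the other GABAergic, astrocyte and granule cell markers were added after their values were seen. No likeness of profiles was computed, as 2 libraries of 1 group give none. Coding lengths are those of the longest annotated coding sequence. The list of alpha2delta partners held 1 further gene, which is not reported here.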

Additional observations from a re-analysis of the deposited data

Results flagged for a closer look

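Counts outside the gene lines entered no comparison and stand above the limit that a count of 0 allows. As a share of all lines, reads on no annotated feature were 16.7% (replicate 1) and 17.0% (replicate 2). Reads over several genes were 2.61% and 2.56%, and reads with several alignments 15.7% and 15.5%. With 2 libraries, outlying samples could not be looked for.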

How the results depend on the processing

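Beside the values with 1 library left out, which with 2 libraries always lie within 1 SD of the mean, 98 values were computed under another setting. Of these, 48 moved by less than the spread between the libraries (for ratios the counting interval, for counts 1.5 times) and 50 by more. Length was the main choice. With the longest transcript, the coding length and no length correction in turn, the share was 75.0%, 84.2% and 84.1% for Cacna2d1, 5.17%, 4.33% and 4.53% for Cacna2d2, 19.1%, 10.8% and 10.6% for Cacna2d3, 28.1%, 25.1% and 29.3% for Cacnb2, and 24.3%, 44.8% and 41.4% for Cacnb4. With the coding length and no correction it was 9.99% and 12.0% for Cacnb1 and 20.1% and 17.3% for Cacnb3. The alpha2delta to pore ratio was 0.400, 0.441 and 0.214 with the 3 settings, and the beta to pore ratio 2.19 with the coding length and 0.540 with no correction. With 1 library left out, shares ran from 77.1% to 79.8% for Cacna2d1, 27.4% to 35.0% for Cacnb3 and 32.1% to 34.9% for Cacnb4. Genes past 2-fold numbered 1343 as reported, 4480 with no filter beyond a count and 269 at a mean CPM of at least 10 (more and fewer genes tested). Totals without Rn45s and Lars2 raised every CPM, and 5 of 8 levels stayed within their spread. With TMM or DESeq2 scaling 8 of 8 did. The sign of the log2 ratio held for 7 of 8 genes with library totals and for 8 of 8 with DESeq2 size factors or a prior count of 0.5. No paired analysis was possible because there is only 1 group. Depth was lowest for Cacna2d4, with 75 and 50 counts.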
